A study of Homo sapiens with 10 samples.

Results

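Nuclear tRNA genes are short, scattered over many chromosomes and transcribed by RNA polymerase III. Here FLAG-tagged MYC proteins were mapped on the chromatin around them. The reference annotation (RefSeq, GRCh38.p14) lists 443 such genes on chromosomes 1 to 22 and X. Of these, 429 have positions on the chromosomes, and 14 carry positions on unplaced or alternate sequences and could not be set against the peaks. Genes at most 10 kb apart were joined, which gave 216 loci. Loci with a protein-coding gene beginning or ending at most 1 kb away (42) are called near loci here, and the other 174 away loci. A locus counted as bound when a peak summit lay within 1 kb of either end of one of its tRNA genes.

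RNA polymerase III reads tRNA genes from a promoter that lies inside the gene. The factor TFIIIC recognises the A box and the B box within the transcribed sequence and brings in TFIIIB, which recruits the polymerase. MYC binds DNA with its partner MAX, prefers the E-box sequence CACGTG, and is known to raise transcription by RNA polymerase III and to contact TFIIIB. Most tRNA species are made from several gene copies, and not all copies are active in a given cell.

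Each sample came from U2OS osteosarcoma cells that lack their own MYC gene and carry a doxycycline-inducible FLAG-MYC transgene. The immunoprecipitates (IPs) with an antibody to FLAG came from cells given 1 µg/mL doxycycline for 24 h and making the 3A mutant, the 7A mutant or wild-type (WT) MYC, with 2 libraries each. The labels do not say which residues the mutants change, nor whether a line is a single clone. Uninduced WT IPs (2 libraries) and the inputs (1 induced, 1 uninduced, both WT) were not used here, so no site could be set against its uninduced level. Chromatin of mouse NIH3T3 fibroblasts had been mixed in as an external reference. The data are 1 peak list for each induced protein, with 845 peaks for 3A, 64 for 7A and 4749 for WT. With 1 list per protein there is no spread between replicates and no test between proteins, and the intervals given are Wilson 95% intervals that cover counting error only.

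The internal promoters are shown first for tRNA genes that fall whole inside the promoter windows of the RefSeq table (GRCh38.p14), 14 genes in all. The A box (T, any base, G, 3 bases of any kind, A, 2 or 3 more and GG) and the B box (GNTCNANNC) are in capitals, and each gene is written 5′ to 3′ on the strand that holds both boxes in that order. The first 3 genes have a WT summit within 1 kb and the last 2 do not, although other copies of the same families do.
TRG-CCC2-2: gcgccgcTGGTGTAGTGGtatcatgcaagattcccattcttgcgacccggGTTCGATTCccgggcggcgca
TRI-TAT2-2: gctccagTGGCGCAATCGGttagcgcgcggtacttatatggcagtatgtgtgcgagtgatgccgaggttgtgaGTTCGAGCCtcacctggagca
TRT-TGT6-1: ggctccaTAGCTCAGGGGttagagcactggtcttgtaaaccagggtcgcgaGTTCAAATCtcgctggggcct
TRF-GAA1-5: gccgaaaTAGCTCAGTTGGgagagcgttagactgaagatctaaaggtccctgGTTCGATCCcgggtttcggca
TRH-GTG1-3: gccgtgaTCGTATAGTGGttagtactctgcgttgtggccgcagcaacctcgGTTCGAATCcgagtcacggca

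These genes lie at chr16:636736-636806 (minus strand), chr6:27020346-27020439 (plus), chr5:181191687-181191758 (minus), chr13:94549650-94549722 (minus) and chr1:148281365-148281436 (plus). All 14 whole genes held both boxes, bound or not. Of all 35116 promoter windows, which are 300 bp long, 56.5% held such an A box and 30.5% such a B box on either strand, so a match in a window of that length is common.

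3A summits were found at 4 of the 216 tRNA loci (1.85%, 0.722 to 4.66%), and 7A summits at 0. WT summits were found at 39 (18.1%, 13.5 to 23.7%), and the other 177 had none. The same 1 kb rule applied to every gene of the annotation other than tRNA genes gave 1.6% for 3A, 0.0604% for 7A and 7.69% for WT. For single tRNA genes the counts were 5 of 429 for 3A (1.17%), 0 for 7A and 59 for WT (13.8%, 10.8 to 17.3%). Counted as single genes, the 3A share thus lay near that of all other genes, and the WT share lay above its own. That background includes protein-coding genes, so away and near loci are set against separate backgrounds below. For 7A, 0 of 216 loci has a Wilson upper limit of 1.75%, and 3 counts of the total, the limit set for a count of 0, come to 1.39%. The 7A summit nearest to any tRNA locus was 161981 bp away, from TRG-CCC2-1 on chromosome 2.

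The loci were then separated by their neighbours. Among away loci 3A had 2 of 174 (1.15%, 0.316 to 4.09%), 7A had 0 and WT had 23 (13.2%, 8.97 to 19.1%). Counted as single genes, 3A had 2 of 374 away tRNA genes (0.535%, 0.147 to 1.93%) and WT had 42 (11.2%, 8.42 to 14.8%). Other non-coding genes and pseudogenes away from protein-coding ends, also counted singly, gave 0.16% for 3A, 0.00319% for 7A and 0.872% for WT. The 3A interval for single tRNA genes includes that 0.16%. Counted as loci in the same way, WT bound 1.24% of away snoRNA loci, 1.14% of away miRNA loci, 1.89% of away lncRNA loci, 0.135% of away pseudogene loci and 0 of 103 away snRNA loci. 3A bound 0.565% (0.242 to 1.32%) of away snoRNA loci and 0.342% (0.249 to 0.469%) of away lncRNA loci, both intervals overlapping that of away tRNA loci. It bound 0.0158% of away pseudogene loci and 0 of 1403 away miRNA loci, with intervals below that of away tRNA loci. That tRNA interval rests on 2 bound loci. Counted as single genes, the 3A intervals of away tRNA genes (0.147 to 1.93%) and away miRNA genes (0 to 0.227%) overlapped. Away loci with 1 tRNA gene were bound by WT at 11 of 110 (10.0%, 5.68 to 17.0%). Among near loci 3A had 2 of 42 (4.76%, 1.32 to 15.8%) and WT had 16 (38.1%, 25.0 to 53.2%). As single genes, 3A had 3 of 55 near tRNA genes (5.45%, 1.87 to 14.9%) and WT had 17 (30.9%, 20.3 to 44%). Protein-coding genes as a whole, also counted singly, gave 3.54% for 3A, 0.126% for 7A and 16.9% for WT. WT bound 17.4% of near lncRNA loci and 23.9% (15.3 to 35.3%) of near snoRNA loci, whose interval overlaps that of the near tRNA loci. 3A bound 14.9% (8.31 to 25.3%) of near snoRNA loci and 4.9% (2.68 to 8.79%) of near miRNA loci, both intervals overlapping that of near tRNA loci. No test of differences between classes was made.

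**Figure D1:**
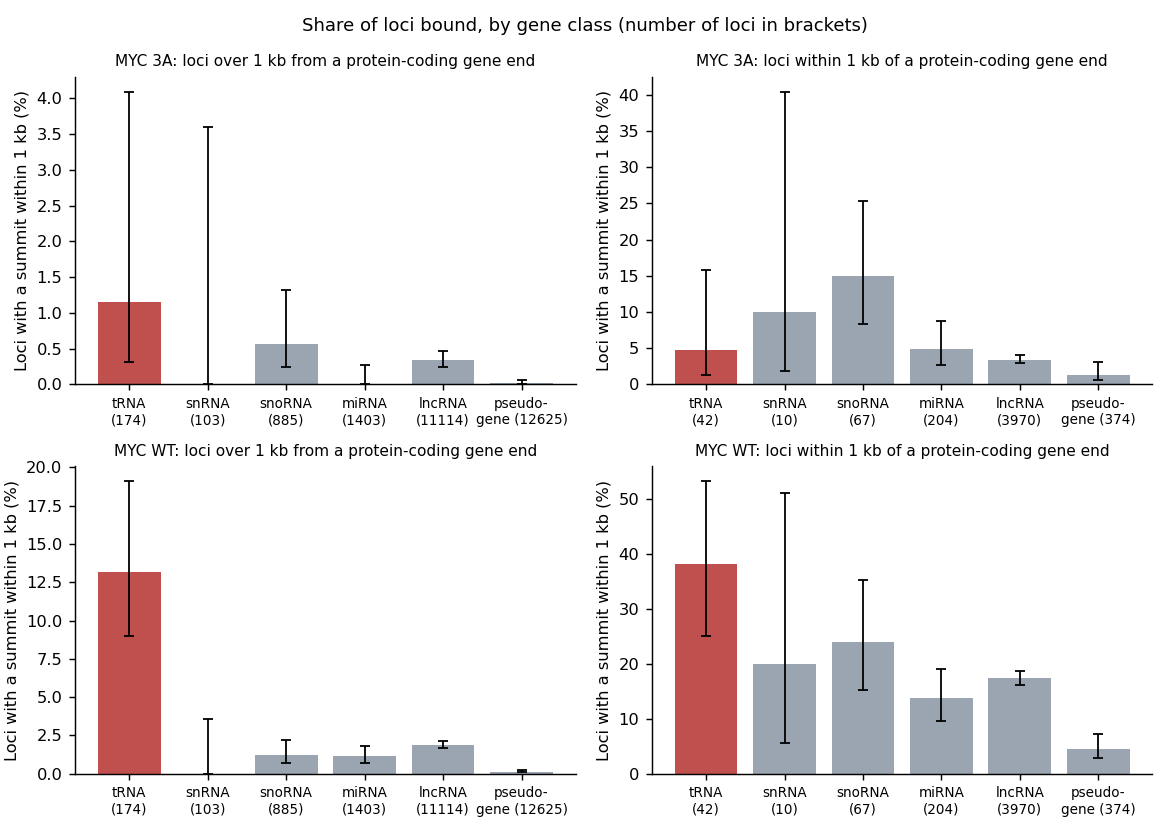
Share of loci (%) with a 3A summit (top) or a WT summit (bottom) within 1 kb, for tRNA loci and for loci of other gene classes built by the same joining rule. Left panels hold loci over 1 kb from a protein-coding gene end and right panels loci within 1 kb, bars are shares, lines are Wilson 95% intervals, and the vertical scales differ. WT bound 13.2% of away tRNA loci and at most 1.89% of the other away classes, and 7A, not drawn, bound none of the tRNA loci.

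Seen from the peaks, tRNA genes took up a small part of each list. They held 4 of 845 3A summits (0.473%, 0.184 to 1.21%), 0 of 64 7A summits and 45 of 4749 WT summits (0.948%, 0.709 to 1.27%). The 45 WT summits fell on 39 loci, 34 with a single peak and 5 with more.

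At away loci the WT summits lay close to the tRNA genes themselves. Of 25 summits 7 were inside a tRNA gene, 14 were within 100 bp of one and the median distance was 63 bp. At near loci 2 of 20 summits were inside a tRNA gene, 7 were within 100 bp and the median was 201 bp. Of WT-bound genes away from protein-coding ends, 18 of 42 tRNA genes had the summit within 100 bp, against 3 of 16 miRNA genes and 1 of 12 snoRNA genes. Neighbouring tRNA genes can share a summit, so the 42 genes are not independent. Of bound loci, those nearest to the 1 kb limit had their nearest WT summit at 598 bp (TRR-TCT3-1), 654 bp (TRL-CAG1-7) and 896 bp (TRR-TCT1-1), and the first ones outside it at 2795 bp (TRI-AAT5-4), 4504 bp (TRK-CTT1-1) and 5739 bp (TRE-TTC1-1).

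**Figure D2:**
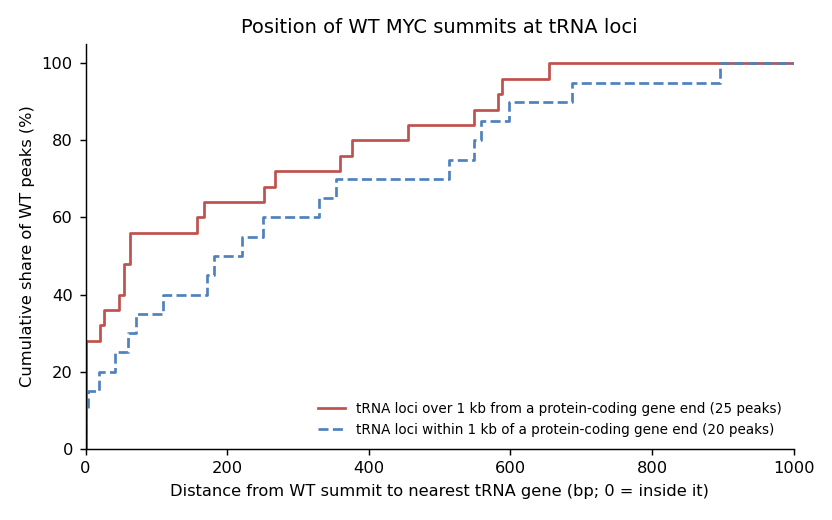
Cumulative share (%) of WT peaks against the distance in bp from the summit to the nearest tRNA gene, with 0 for summits inside one, for 25 peaks at away loci (solid) and 20 at near loci (dashed). The away curve starts at 7 summits inside a gene and passes its median at 63 bp, the near curve at 201 bp.

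The away loci were also checked against transcription starts inside gene spans. Of the 25 summits, 23 at 21 loci lay over 1 kb from every protein-coding gene end and every annotated protein-coding start. All 14 of the summits within 100 bp of a tRNA gene were among them. The exceptions were TRM-CAT6-1, an elongator methionine gene whose summit was 21 bp from a start of FBXO31, and TRV-AAC1-1, whose summit was 927 bp from the start of MYNN. An end of some other annotated gene lay within 1 kb of 4 of the 23, and the nearest was that of a lncRNA gene each time.

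TRT-TGT2-1, a threonine tRNA gene on chromosome 1 (222465005 to 222465077), had the highest WT fold of any tRNA locus at 13.7, rank 92 of 4749. Folds are the authors' enrichment at the summit over local background. The whole pileup of IP fragments and the background were recovered from each fold and p-value: 125 fragments over a background of 8.22 here. The summit lay 588 bp from the gene, 56599 bp from the end of HHIPL2, and outside any protein-coding start window, so the strongest site was not the closest one. The asparagine gene TRN-GTT2-4 followed with a fold of 8.23 (84 fragments over 9.33, 252 bp from the gene). At TRP-CGG1-1, a proline gene, the fold was 7.91 (114 fragments over 13.5) with the summit 55 bp away, and the same peak served TRP-AGG2-1 818 bp away. TRL-TAA1-1, a leucine gene, had 7.40 (85 over 10.6) at 549 bp.

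Folds from 7.09 down to 4.76 marked the next 11 away loci. They were led by the initiator methionine gene TRX-CAT1-8 (7.09, 102 fragments over 13.5, 63 bp) and the glutamine gene TRQ-TTG1-1 (6.75, 455 bp). TRL-CAG1-7 had 5.97, TRR-TCT3-2 5.76, TRM-CAT6-1 5.71, TRI-TAT2-2 5.23, TRA-TGC4-1 5.21, TRR-CCT1-1 5.12, TRF-GAA1-4 5.05, TRT-TGT3-1 4.92 and TRS-GCT2-1 4.76. Of these the summit lay inside the gene at TRA-TGC4-1 and TRS-GCT2-1, 20 bp away at TRR-CCT1-1, 47 bp at TRR-TCT3-2 and 54 bp at TRT-TGT3-1. The remaining 8 away loci ranged from 2.86 at TRT-CGT4-1 to 4.29 at TRW-CCA1-1 and TRV-AAC1-1. Of these 8 loci, TRW-CCA1-1, TRG-GCC1-5 (3.88), TRH-GTG1-1 (3.60) and TRT-CGT4-1 had the summit inside the gene.

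At near loci a peak can belong to the tRNA gene or to the neighbouring protein-coding gene, and position was the only measure that bears on which. Of 20 WT summits 12 were nearer to a tRNA gene and 8 nearer to the protein-coding end, and 14 were within 1 kb of that end. TRR-ACG1-3 had the highest fold here, 7.32 (116 fragments), but its summit was 29 bp from the annotated start of PRMT5, an arginine methyltransferase gene, and 354 bp from the tRNA gene. TRL-AAG2-4 stands beside POLR3E, which encodes a subunit of RNA polymerase III. Its summit (fold 6.93, 93 fragments over 12.6) was 16 bp from the annotated POLR3E start and 172 bp from the tRNA gene. TRX-CAT1-1, the second initiator methionine gene with a summit, had 4.62 with the summit 73 bp from ILF2 and 330 bp from the tRNA gene. The annotated start of NCOA7 (239 bp, against 558 bp to TRE-CTC1-7, fold 5.23) was likewise the nearer.

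At other near loci the summit lay nearer to the tRNA gene than to a protein-coding gene end. In the locus of 14 genes on chromosome 16 (3150674 to 3192060), TRR-CCT3-1 had 6.43 with the summit 19 bp away and TRK-CTT3-1 had 4.21 with it inside the gene, both over 10 kb from a protein-coding end. TRP-AGG2-8 in the same locus had 3.05 at 42 bp. TRR-TCG1-1 stands next to POLG, the gene of the mitochondrial DNA polymerase, and its summit (3.45) was 72 bp from the tRNA gene and 177 bp from POLG. TRC-GCA2-4 had 2.33, the lowest fold of all tRNA peaks, with the summit 3 bp away. TRR-ACG1-2 (6.47) had its summit 181 bp away and 615 bp from HMGN4, and TRV-CAC1-5 (4.35) 109 bp away and 995 bp from TRIM41. For TRR-TCT1-1 (6.59) the summit was 896 bp away and 1474 bp from the BCAR3 end, but closer to an annotated BCAR3 start (542 bp) and to MIR760 (155 bp). TRE-TTC1-2 had 1 peak nearer to it (4.73, 549 bp) and 1 at the annotated start of WBP4 (2.94, 13 bp). TRG-CCC2-2 had 1 peak of each kind, a summit inside the gene with a fold of 3.22 (29 fragments over 8.31) and a stronger one, 7.16, 82 bp from METTL26 and 513 bp from the tRNA gene.

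**Figure D3:**
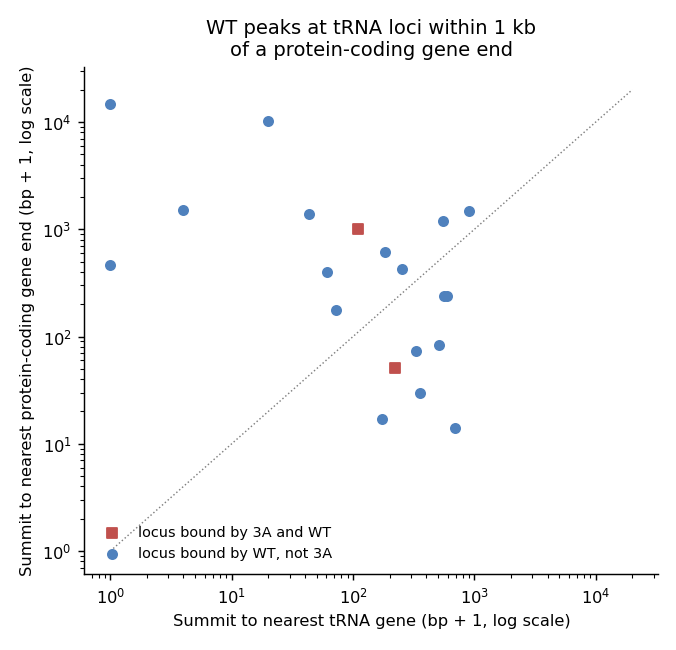
Distance from each of 20 WT summits at near tRNA loci to the nearest tRNA gene (horizontal) and to the nearest protein-coding gene end (vertical), both in bp plus 1 on log scales. Squares are loci that 3A also bound, circles loci it did not, and the dotted line marks equal distance; 12 summits lie above it, nearer to the tRNA gene, and 8 below.

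At near loci 2 promoter windows that held a WT summit also held the E-box CACGTG, shown in capitals. Each runs from 250 bp before to 50 bp after an annotated start, and the POLR3E window begins inside TRL-AAG2-4.
POLR3E, chr16:22297159-22297458, plus strand: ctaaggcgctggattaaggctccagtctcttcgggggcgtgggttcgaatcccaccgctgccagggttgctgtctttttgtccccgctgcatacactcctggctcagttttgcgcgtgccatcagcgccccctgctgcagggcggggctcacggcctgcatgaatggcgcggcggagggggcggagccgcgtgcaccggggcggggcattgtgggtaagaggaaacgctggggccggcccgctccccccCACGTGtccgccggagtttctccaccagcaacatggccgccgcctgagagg
NDUFS7, chr19:1383657-1383956, plus strand: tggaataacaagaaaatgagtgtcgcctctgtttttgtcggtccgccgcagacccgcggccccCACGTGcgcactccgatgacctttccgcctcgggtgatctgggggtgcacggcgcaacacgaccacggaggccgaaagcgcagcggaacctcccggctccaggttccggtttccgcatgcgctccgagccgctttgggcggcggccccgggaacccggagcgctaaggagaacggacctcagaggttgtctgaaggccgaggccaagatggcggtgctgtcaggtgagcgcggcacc

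The E-box of the POLR3E window lay 15 bp from the WT summit. In the window of NDUFS7, a gene of mitochondrial complex I, it lay 137 bp from the 3A summit and 132 bp from the WT summit, and TRF-GAA1-6 and TRN-GTT2-6 stand upstream of it. Of the 11 windows with a WT summit of a tRNA locus, 2 held CACGTG and 5 held CANNTG, against 7.26% and 68.7% of all 35116 windows, and these motifs read the same on both strands. Every CACGTG is also a CANNTG. The windows of ELF1 and WBP4 overlap and share a summit, as do those of FBXO31 and the lncRNA gene LOC124903747. The 11 windows are therefore not independent, and none of these overlapping ones held either motif.

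3A bound 4 tRNA loci, and WT bound all 4. At TRI-TAT2-2, an isoleucine gene with an intron on chromosome 6, the 3A fold was 3.47 (51 fragments over 14.0) with the summit 251 bp from the gene, and WT had 5.23 (66 over 11.8) at 157 bp. Beside TRX-CAT1-8 on chromosome 17, 3A had 3.41 (54 over 15.1) at 40 bp and WT 7.09 at 63 bp. These 2 are the away loci, and the summits of both proteins lay over 4 kb from any protein-coding end. At TRI-TAT2-2 an end of the lncRNA gene LARRPM was nearer than the tRNA gene in both lists, 211 bp from the 3A summit and 117 bp from the WT summit. For the locus of TRF-GAA1-6 and TRN-GTT2-6, 3A had 3.29 (57 over 16.6) and WT 4.26 (65 over 14.5), with the 3A summit 45 bp and the WT summit 50 bp from NDUFS7. Near TRV-CAC1-5, 3A had 2.74 (61 over 21.7) with its summit 967 bp away and 153 bp from TRIM41, and the peak did not overlap the WT peak there, whose summit was 109 bp from the tRNA gene. The folds belong to separate lists with their own scale and are not compared between proteins. In the 3A list these peaks ranked 392, 422, 477 and 696 of 845.

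Of WT-bound tRNA loci 3A thus bound 4 of 39 (10.3%, 4.06 to 23.6%), and of WT peaks at tRNA genes 3 of 45 (6.67%, 2.29 to 17.9%) overlapped a 3A peak. Over all WT peaks the shares with an overlapping peak were 15.1% for 3A and 1.03% for 7A, and both tRNA intervals for 3A include the value for all peaks. WT peaks between the quartiles of fold of the tRNA peaks (3.68 to 6.43) overlapped a 3A peak at 2 of 23 tRNA peaks (8.70%) and at 10.8% of all such peaks. For 7A, 0 of the 39 WT-bound loci has a Wilson upper limit of 8.97%, and 3 counts of 39 come to 7.69%. The locus with the highest WT fold, TRT-TGT2-1, was not bound by 3A.

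The WT peaks at tRNA genes resembled the WT list in size. Their median fold was 4.73 (2.33 to 13.7) against 5.16 over the other WT peaks, and 18 of 45 ranked above the median of the list. The median pileup was 67 fragments (29 to 125) against 72, the median background 12.6 against 13.0, and the median width 875 bp against 790 bp. Away loci had a median fold of 5.05 and near loci 4.30. In the 3A list the 4 tRNA peaks had a median fold of 3.35 against 3.41 over the other 3A peaks.

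**Figure D4:**
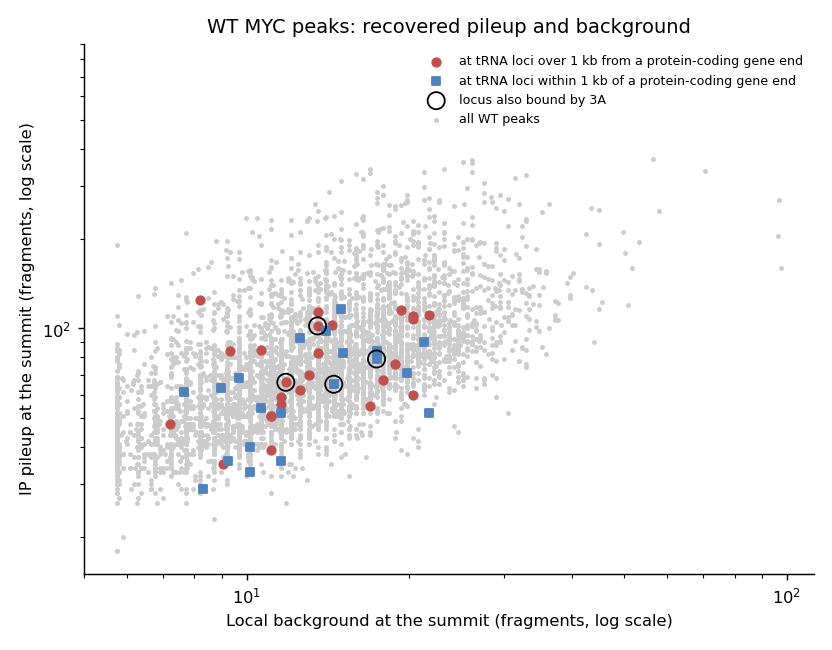
IP pileup at the summit against local background, both in fragments on log scales, for WT peaks. Red circles are peaks at away tRNA loci, blue squares peaks at near tRNA loci, open rings mark loci that 3A also bound and small grey points are all WT peaks whose values were recovered. The tRNA peaks run from 29 to 125 fragments and lie among the other peaks.

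Among the 5 largest loci 2 were bound by WT and none by 3A or 7A. The largest, 24 genes in repeated units on chromosome 1 (161440171 to 161480636), had no summit of any protein within 1 kb, and its nearest WT summit was 246005 bp away. The pair on chromosome 6, with 12 and 8 genes, had none either, and the nearest WT summit to the larger was 189039 bp away. The bound ones were the 14 genes on chromosome 16 and the 8 genes on chromosome 11 (59550629 to 59566452), where WT had 5.76 beside TRR-TCT3-2 and 4.64 beside TRK-TTT5-1. By size, WT bound 21 of 136 loci of 1 gene (15.4%), 10 of 53 of 2 or 3 genes (18.9%) and 8 of 27 of 4 or more (29.6%, 15.9 to 48.5%), with overlapping intervals. Longer loci also offer more sequence to the rule.

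The region between 25 and 30 Mb of chromosome 6 holds 144 tRNA genes in 51 loci, about the histone gene clusters. 3A bound 1 of them (1.96%) and WT 4 (7.84%, 3.09 to 18.5%). Elsewhere 3A bound 3 of 165 (1.82%) and WT 35 (21.2%, 15.7 to 28.1%). With near loci left out WT had 3 of 49 in the region and 20 of 125 elsewhere. On chromosome 17 WT bound 7 of 14 loci, on chromosome 1 it bound 5 of 49, and on chromosome 7 it bound 0 of 17. How reads that align to several near-identical copies were treated is unknown here, so counts at repeated clusters are uncertain.

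WT-bound genes covered most amino acids. Of 22 groups, counting initiator methionine and selenocysteine apart, 20 had a WT-bound gene, as did 36 of 49 anticodon groups. Arginine genes had the highest share, 9 of 26 in 8 loci, followed by tryptophan (2 of 7), threonine (5 of 20) and initiator methionine (2 of 8). The share over all tRNA genes was 13.8%. These counts join near and away loci. Among arginine genes the summit was nearer to a protein-coding end at TRR-ACG1-3 (29 bp, against 354 bp) and TRR-TCT3-1 (237 bp, against 598 bp). At others, such as TRR-CCT1-1 (20 bp) and TRR-TCG1-1 (72 bp), it was nearer to the tRNA gene. Tyrosine (0 of 13) and selenocysteine (0 of 2) had none, with the nearest WT summit 22552 bp from TRU-TCA1-1 and 126589 bp from TRU-TCA2-1, and alanine had 2 of 37. 3A reached 1 gene each of asparagine, initiator methionine, isoleucine, phenylalanine and valine.

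**Figure D5:**
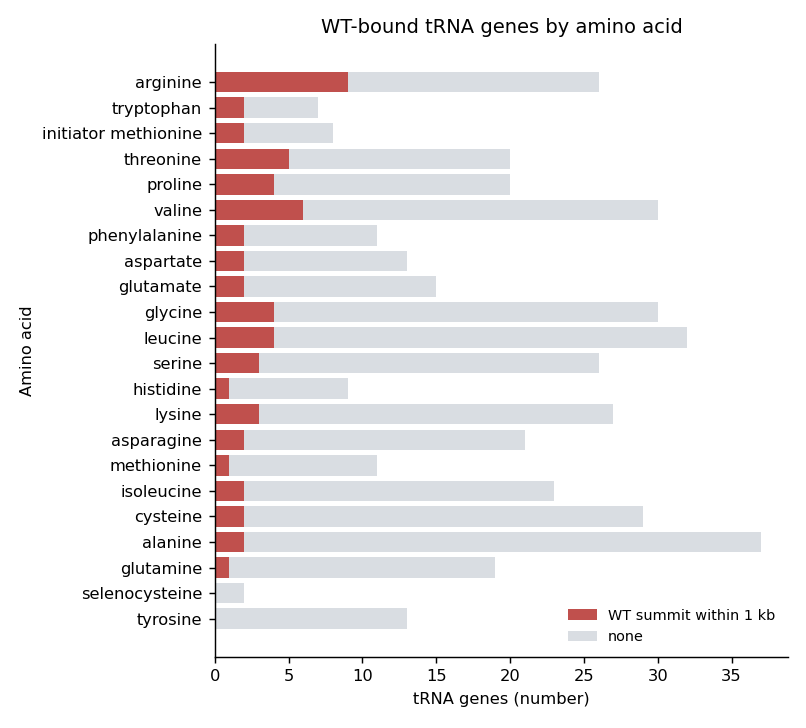
Number of tRNA genes for each amino acid, split into those with a WT summit within 1 kb (red) and those without (grey), ordered by the bound share. Near and away loci are counted together. Arginine leads with 9 of 26, and tyrosine (13 genes) and selenocysteine (2 genes) have none.

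Copies of one tRNA species differed in whether a WT summit was listed near them. How reads that align to several near-identical copies were treated is unknown, so a copy without a summit may not differ in binding. By the naming rule of tRNA genes, copies that share all but the last number make the same mature tRNA. Of 57 such families with more than 1 placed gene, 26 held both bound and unbound copies, 30 held none that WT bound, and TRR-TCT3 alone had every copy bound (2 of 2). For the initiator methionine tRNA, which starts each protein chain, TRX-CAT1-1 and TRX-CAT1-8 had WT summits at 330 and 63 bp, while the nearest WT summits to the other 6 copies, all on chromosome 6, were 34911 to 604419 bp away. TRG-CCC2-2 had a summit inside the gene, and TRG-CCC2-1, 198 bp from the end of TIA1 on chromosome 2, had none within 44510 bp. The 53 bases of TRG-CCC2-1 that a promoter window covers match TRG-CCC2-2 exactly, from its base 19 on.

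Of 20 other genes that RNA polymerase III transcribes 3A had a summit at 1, 7A at 0 and WT at 3. Over all genes other than tRNA genes the shares were 1.6% for 3A, 0.0604% for 7A and 7.69% for WT, and with 20 genes the counts are too small to be read against them. RN7SL1, the RNA of the signal recognition particle, had a fold of 2.65 for 3A and 5.46 for WT. Its near-identical copy RN7SL2 had neither, and the same limit on reads shared by copies applies. RMRP, the RNA of an RNA-processing endonuclease, had 7.62 for WT, with the summit 121 bp from an end of the gene. RN7SK, which restrains a transcription elongation kinase, had 5.27, with the summit 16 bp from an end. The RMRP gene itself lies 273 bp from CCDC107, and the RN7SK gene 336 bp from GSTA4. The U6, Y RNA and vault RNA genes of the list, BCYRN1, RPPH1 and RNU6ATAC had no summit, and neither did the 17 genes of 5S ribosomal RNA.

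Genes that make and mature tRNA were read with the same rule against the protein-coding shares given above. Of 31 RNA polymerase III machinery genes 3A had a summit at 4, 7A at 0 and WT at 14 (45.2%). GTF3A, the factor specific to 5S RNA genes, had a WT fold of 13.8, and GTF3C4, a TFIIIC subunit, 13.3. POLR3D, a subunit of the polymerase, had a 3A fold of 3.70 and a WT fold of 11.1. Of 25 tRNA processing and export genes 3A had 1, DDX1, and WT had 11 (44.0%). RPP40, an RNase P subunit, had 9.52, DDX1, part of the tRNA ligase complex, 7.23, the exporter XPOT 6.69, and ELAC2, which trims the 3′ end, 6.12. Of 52 tRNA modification genes 3A had 7, 7A 0 and WT 31 (59.6%). METTL1, which methylates guanosine in tRNA, had a 3A fold of 5.06 and a WT fold of 13.5, TRMT2A had 4.24 for 3A and 13.6 for WT, and DUS3L had 4.20 for 3A and 12.5 for WT, while PUS7, a pseudouridine synthase, had 11.4 for WT and no 3A summit.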

How the data were processed

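Per the submitters' processing notes, reads passed through cutadapt, Bowtie2, SAMtools, Picard and MACS2, with hg19, mm10 and hg38 named without roles. Library depth, the control, the treatment of reads with several alignments and whether mouse reads were used to scale the lists are not stated. No scaling was added here. For every induced protein the authors deposited 1 list of peaks. Its columns give the authors' fold (the ratio of IP signal at the summit to its surroundings), a −log10 p-value, the −log10 of the q-value, a deposited score that was not used, and the summit offset. Fold, p-value, q-value and offset were used. Coordinates were counted from 1.

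Gene positions and promoter sequences came from RefSeq tables of GRCh38.p14. Rows of a chromosome after its starts fall back belong to unplaced or alternate sequences and were left out. On chromosome 8 promoter windows were not used here. Gene ends have no strand, so up- and downstream are not told apart, except where an annotated start from the promoter windows is named. Whole pileups were recovered with background by solving the fold, with 1 added above and below the line, together with the Poisson p-value, to within 0.02 of the step between pileups for 49 of 49 tRNA peaks. Distances, joining and recovery were tested on simulated data.

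The members, gene lists and rules were chosen with earlier results of these data known. Named by rule were all loci bound by 3A or 7A, the 15 away and 10 near loci with the highest WT fold, the 5 largest, and the initiator methionine and selenocysteine genes. Further loci, such as TRR-TCG1-1, TRC-GCA2-4, TRR-TCT3-1 and TRG-GCC1-5, were named outside this rule, after their values were seen. In each gene list up to 4 genes with the highest WT fold were named, and others after their values were seen. A gene that this rule would name is not reported here. All values are counts and medians with no test. Alternatives covered the window, the −log10 q, the joining distance and the definition of near loci. Python 3.11.15, numpy 2.4.6, pandas 2.3.3, scipy 1.17.1, statsmodels 0.14.6 and matplotlib 3.10.9 were used.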

Additional observations from a re-analysis of the deposited data

How the results depend on the processing

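WT bound 32 to 43 loci under every other window, −log10 q limit, overlap rule and joining distance tried, and 59 when each tRNA gene was counted. The WT share moved with the joining distance, to 43 of 352 (12.2%, 9.2 to 16.1%) at 1 kb and 34 of 130 (26.2%, 19.4 to 34.3%) at 50 kb. Both shares lie outside the interval of the main setting, 13.5 to 23.7%. At a −log10 q of at least 10 the 3A count fell to 2 loci, 1 of them away, and 2 of 33 WT-bound loci were shared. With protein-coding ends sought within 5 kb, 3A had 1 away locus. The 7A count was 0 in every alternative run. A pair of alternatives was chosen after the data were seen: near loci set by protein-coding starts (WT bound 25 of 184 away and 14 of 32 near loci) and the 14 unplaced tRNA genes kept at their listed positions (39 of 226 for WT). No paired analysis was possible because each protein has 1 list with no column per library, and for the same reason no replicate could be left out. Peak calling sets the limit: a locus without a listed peak may still hold signal below the authors' threshold.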
